A study of Homo sapiens with 27 samples.

Results

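The 41 genes described here act in G2 and mitosis. They were taken by symbol from a list of genes whose mRNAs peak late in the cell cycle, with the spindle checkpoint genes left out, and they are 41 of the 34464 genes measured. All 41 passed the minimum mean of 1 FPKM (fragments per kilobase of transcript, scaled to library size), which left 14611 genes for the tests. The data are RNA Frac-Seq of U2OS, a human osteosarcoma cell line. In this method cells are split into nuclear and cytoplasmic/ER fractions and the poly(A)+ RNA of each is sequenced beside RNA of whole cells ("total"). Cells received a lentivirus with a control shRNA, or with one of the shRNAs TPR A and TPR D, both directed at TPR, a protein of the nuclear pore basket, and were depleted for 5 days. With 3 replicates of each shRNA and 3 fractions of each culture there were 27 libraries. All cultures, controls included, carried a viral shRNA vector and were selected with puromycin. The study's methods call the replicates biological ones without saying how the cultures were kept apart, and the p-values measure the spread between these samples.

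Cells enter mitosis when CDK1 bound to cyclin B is switched on, and they leave it when the anaphase-promoting complex marks cyclin B for destruction. Between these events kinases of the Aurora and NEK families, kinetochores, motor proteins and microtubule-binding proteins build the spindle and divide the cell. Many of the mRNAs are made late in the cell cycle, and their promoters often hold CCAAT boxes, bound by NF-Y, and a cell cycle genes homology region (CHR), bound by the MuvB complexes.

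The promoters of 4 of the genes are shown because their mRNAs stand at the ends of the comparisons that follow and they hold both motifs. CDC20 was among the lowest in total RNA with TPR-depletion, CKS1B and CKS2 had the most cytoplasmic mRNAs with BIRC5, and MKI67 had one of the most nuclear. Sequences are from RefSeq on GRCh38.p14, 5′ to 3′ on the gene's strand, and capitals mark a CCAAT box (CCAAT, or ATTGG on the other strand) or a CHR (TTTGAA, or TTCAAA on the other strand).
CDC20, chr1:43358873-43358938, plus strand: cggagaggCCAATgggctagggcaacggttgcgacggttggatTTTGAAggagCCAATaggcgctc
CKS1B, chr1:154974571-154974664, plus strand: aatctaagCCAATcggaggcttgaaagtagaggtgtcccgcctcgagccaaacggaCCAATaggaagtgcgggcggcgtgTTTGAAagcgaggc
CKS2, chr9:89311117-89311179, plus strand: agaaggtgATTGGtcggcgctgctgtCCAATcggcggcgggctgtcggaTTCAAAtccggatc
MKI67, chr10:128126435-128126529, minus strand: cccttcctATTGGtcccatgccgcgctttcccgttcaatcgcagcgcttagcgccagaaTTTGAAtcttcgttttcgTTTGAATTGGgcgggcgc
Each stretch runs from 8 bases before the first to 8 after the last motif in the 130 bases before the transcription start. In MKI67 the last CHR and a CCAAT box overlap. The CHR of CDC20 in this stretch began 65 bases before the start, that of CKS1B 30 and that of CKS2 29. In MKI67 the pair began 47 and 29 bases before it.

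Windows of 300 bases, 250 before and 50 after the start, were held for 34 of the 41 genes, and 6 of these had more than 1 window, which gave 42. Windows on chromosome 8, where CDCA2 lies, were left out of all counts. A CCAAT box on either strand was in 31 windows, or 73.8%, against 34.6% of the 35116 windows of all other genes with a window and the 41. A CHR in either of its forms (TTTGAA on either strand, or TTCGAA) was in 30 windows, or 71.4%, against 16.4% of all. Both motifs were in 25, or 59.5%, against 6.38% of all. Windows of UBE2C, CDCA2, TPX2, ANP32E, HMGB2, BIRC5 and AURKA were not analysed here.

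TPR itself (ENSG00000047410, chr1:186280784-186344825 on GRCh37, minus strand) was first measured as a check of the labels. In total RNA it was at 28.2, 24.3 and 25.9 FPKM in control, 4.49, 3.55 and 4.86 in TPR A and 3.39, 4.90 and 6.30 in TPR D cultures, with no overlap. It fell by 2.59 under TPR A (standard error, SE, 0.36, limma adjusted p = 0.0012) and by 2.44 under TPR D (SE 0.36, limma adjusted p = 0.0016) on the log2 scale, and without control replicate 2 by 2.64 and 2.50 (limma adjusted p = 0.0080 and 0.0116). Of the line's markers, VIM (895 to 2363 FPKM), SPARC, COL1A1 and RUNX2 were present in all total libraries, while COL1A2 stayed at or below 0.492, BGLAP at or below 0.295 and TWIST1 at or below 0.0801 FPKM. Leukocyte markers reached at most 1.26 FPKM, endothelial markers 0.444 and the epithelial marker EPCAM 7.19. Depth, read from the steps of single reads in low values, was 31.6 to 87.1 reads per kb at 1 FPKM, and the lowest value of any of the 41 genes stood for about 184 reads.

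The nuclear and total libraries of control replicate 2 went against their labels. The library labelled nuclear had 21.8% of its FPKM on mitochondrial genes, where the other 8 nuclear libraries had 0.774 to 2.42% and the other 8 total libraries 15.8 to 24.7%. The library labelled total had 0.738%. The library labelled nuclear correlated at 0.977 with the mean of the total libraries and at 0.944 with that of the other nuclear ones. The library labelled total correlated at 0.973 with the mean of the nuclear libraries and at 0.940 with that of the other total ones. Each was thus closer to the other's fraction, and whether the 2 libraries were exchanged was not tested. Both were kept under their labels. Levels, changes and N/C ratios that rest on them are followed by their values without control replicate 2.

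Levels of the 41 mRNAs in control total RNA spanned a wide range. Means went from 15.3 FPKM for CDC25C, the phosphatase that activates CDK1, to 444 FPKM for CCNB1, cyclin B1, with a median of 79.1 FPKM. From control replicates 1 and 3 alone the same genes stood at the ends, at 10.1 and 279 FPKM, with a median of 63.5 FPKM. FPKM is per length, so these levels can be set side by side.

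**Figure D1:**
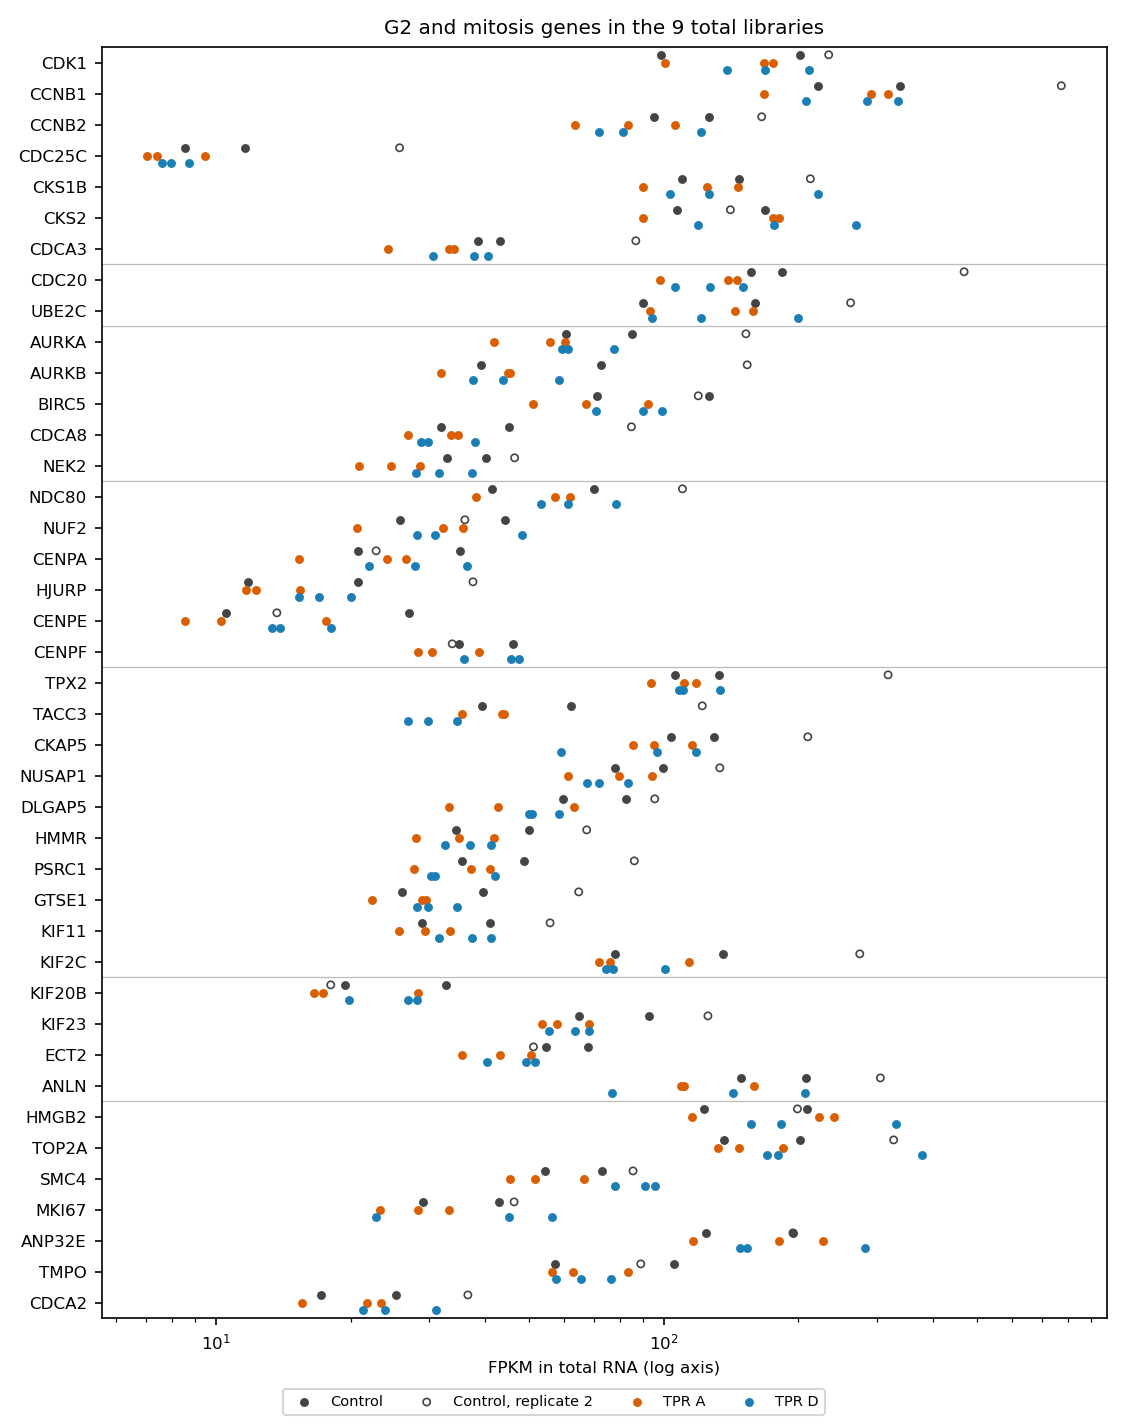
Levels of the 41 genes in the 9 total libraries, in FPKM on a log axis, with 1 point per library and genes grouped by role from CDK1 and its regulators at the top to chromosome structure at the bottom. The open circles of control replicate 2 stand at the right for many genes, as for CDC20 at 469 FPKM, while the other controls lie near the TPR A and TPR D points.

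The first comparison asked how much of each mRNA whole cells held with and without TPR. Most of the 41 mRNAs were lower on average with TPR-depletion, but none passed the test. The median log2 change was -0.50 under TPR A (38 of 41 below 0) and -0.30 under TPR D (30 of 41 below 0), against -0.0053 and -0.010 over all 14611 genes, of which 50.6% and 50.8% were below 0. By limma with Benjamini-Hochberg adjustment 0 of 41 were called with either shRNA, where 0.821% and 0.753% of all genes were. At an unadjusted p under 0.05, 16 were lower under TPR A (5.84% of all genes) and 9 under TPR D (7.96% of all genes). None of the 41 was higher, against 993 and 974 of all 14611 genes. The TPR A and TPR D comparisons share their control libraries. In bulk RNA, fewer cells in G2 and mitosis and less of these mRNAs per cell cannot be told apart.

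The control libraries labelled total were spread as widely as this difference. The median log2 level of the 41 genes was 6.19, 6.78 and 5.78 in control replicates 1 to 3. In TPR A cultures it was 5.95, 5.69 and 5.39, and in TPR D cultures 5.80, 5.93 and 5.74. Control replicate 2 stood highest and control replicate 3 lay among the depleted cultures, with all 41 genes below the control mean. The library of control replicate 2 had 0.738% of its FPKM on mitochondrial genes, where the other 8 total libraries had 15.8 to 24.7%. Its height can therefore not be read as a difference between control cultures. Without control replicate 2 the median change was -0.27 under TPR A (36 of 41 below 0) and -0.13 under TPR D (25 of 41 below 0). At an unadjusted p under 0.05 by limma, 1 gene was then lower with each shRNA, against 531 and 711 of all 14611 genes. Without control replicate 3 the median change was -0.75 and -0.64, and limma then called 3 genes under TPR A (TACC3, AURKA and HJURP) and 1 under TPR D (TACC3). The share of all genes called in that fit is not given here. Its controls were replicates 1 and 2, and the total library of replicate 2 went against its label, so these calls lean on that library.

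**Figure D2:**
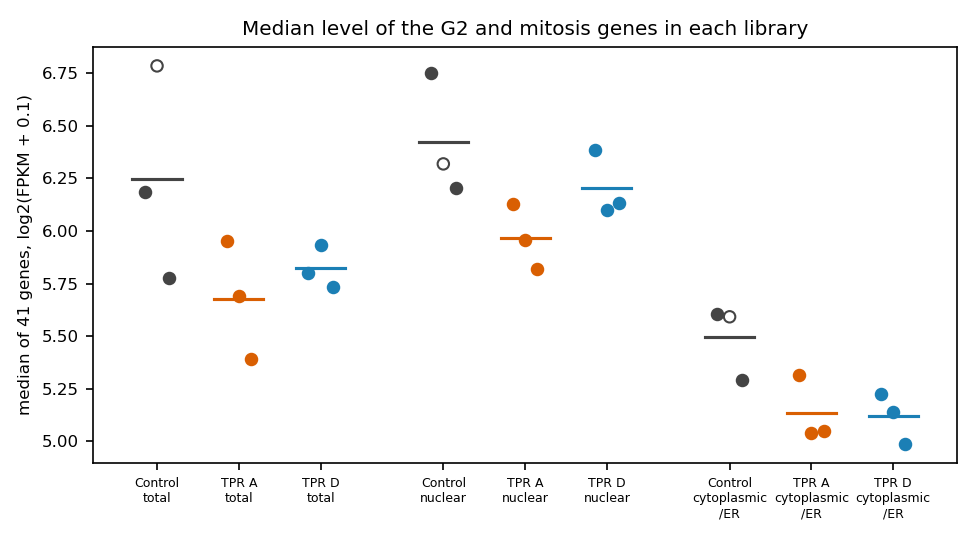
Median level of the 41 genes in each of the 27 libraries, as log2(FPKM + 0.1), where points are libraries, bars are means of 3 and open circles are control replicate 2. In total RNA the controls span 5.78 to 6.78 and overlap the depleted cultures, and in the nuclear fraction the 3 TPR A points lie below the 3 controls.

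Within the replicates whose labels share a style the direction held. The change had a median of -0.62 (TPR A) and -0.31 (TPR D) in replicates 2 and 3, and of -0.32 and -0.37 in replicate 1 alone. The controls of replicates 2 and 3 include the total library of control replicate 2, which went against its label. Replicate 1 is free of that library but has 1 culture per shRNA. When replicate number entered the fit as a block, the median changes stayed as they were and 1 gene was called with each shRNA. These were AURKA at -0.83 under TPR A (SE 0.19, limma adjusted p = 0.0277) and TACC3 at -1.14 under TPR D (SE 0.21, limma adjusted p = 0.0074). Of all 14611 genes, the blocked fit called 229 higher and 149 lower under TPR A, and 221 higher and 240 lower under TPR D. In the fit without control replicate 2, which had no block, neither gene passed (limma adjusted p = 0.612 for AURKA and 0.342 for TACC3).

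The genes of the CDK1 switch had medians of -0.61 under TPR A and -0.50 under TPR D over 7 genes, which came to -0.14 and -0.016 without control replicate 2. CDC25C was at 11.6, 25.7 and 8.52 FPKM in control, 9.47, 7.37 and 7.03 in TPR A and 7.59, 7.95 and 8.73 in TPR D cultures. The value of control replicate 2 stood far above the rest, and control replicate 3 lay among the depleted cultures. The log2 change was -0.78 under TPR A (SE 0.31, limma adjusted p = 0.274) and -0.75 under TPR D (SE 0.31, limma adjusted p = 0.263), and -0.33 and -0.30 without control replicate 2.

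CKS2, a small subunit that binds CDKs, lay at the other end of the 41. It was at 169, 141 and 107 FPKM in control, 181, 175 and 89.9 in TPR A and 270, 176 and 119 in TPR D cultures, and the 3 groups overlapped. The change was 0.055 under TPR A and 0.38 under TPR D (SE 0.36 for both, limma adjusted p = 0.965 and 0.642), and 0.078 and 0.41 without control replicate 2.

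CDC20 activates the anaphase-promoting complex, and UBE2C is its ubiquitin-conjugating enzyme. CDC20 was at 184, 469 and 157 FPKM in control, 139, 146 and 98.0 in TPR A and 127, 151 and 106 in TPR D cultures. All depleted cultures were below all controls, and control replicate 2 was far above the other controls. The change was -0.92 under TPR A and -0.91 under TPR D (SE 0.38, limma adjusted p = 0.311 and 0.279), and -0.43 and -0.42 without control replicate 2.

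The Aurora kinases drive spindle assembly (AURKA) and, with BIRC5 and CDCA8 in the chromosomal passenger complex, chromosome attachment and cytokinesis (AURKB). NEK2 acts in centrosome separation. All 5 were below 0 with both shRNAs, with medians of -0.69 and -0.49. The 5 stayed below 0 without control replicate 2, with medians of -0.46 and -0.18. AURKB was at 72.5, 154 and 39.1 FPKM in control, 44.8, 45.3 and 31.9 in TPR A and 43.7, 58.3 and 37.6 in TPR D cultures. Control replicate 3 lay among the depleted cultures. The change was -0.92 and -0.73 (SE 0.40, limma adjusted p = 0.340 and 0.404), and -0.41 and -0.22 without control replicate 2.

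AURKA was at 84.8, 153 and 60.5 FPKM in control and at 60.3, 55.7 and 41.9 in TPR A cultures, with no overlap though control replicate 3 and TPR A replicate 1 nearly met. In TPR D cultures it was at 59.5, 77.5 and 61.2 FPKM and overlapped the controls. The change under TPR A was -0.83 (SE 0.25, limma adjusted p = 0.132), and -0.46 without control replicate 2.

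The 10 genes of spindle microtubules were all below 0 with both shRNAs, with medians of -0.60 and -0.52. The medians were -0.26 and -0.27 without control replicate 2, and KIF11 was above 0 under TPR D, at 0.084. With all libraries, TACC3, which binds and steadies spindle microtubules, was the lowest of the 41 on average over both shRNAs. It was at 62.2, 122 and 39.4 FPKM in control, 43.5, 43.97 and 35.4 in TPR A and 29.8, 34.7 and 26.9 in TPR D cultures. TPR D cultures lay below all controls and TPR A cultures overlapped them. The change was -0.71 under TPR A (SE 0.29, limma adjusted p = 0.304) and -1.14 under TPR D (SE 0.29, limma adjusted p = 0.0653), and without control replicate 2 -0.28 and -0.71. DLGAP5, at -0.64 and -0.40 without control replicate 2, was then lower on average.

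Among 6 centromere and kinetochore genes the median was -0.34 under TPR A and -0.033 under TPR D, and among 4 of the central spindle and cytokinesis it was -0.52 and -0.42. The kinetochore genes without control replicate 2 had medians of -0.29 and 0.075, with 5 of 6 above 0 under TPR D, and the cytokinesis genes -0.44 and -0.35. The 7 genes of chromosome and chromatin structure had a median of -0.33 under TPR A and 0.12 under TPR D, with 2 and 5 genes above 0. These were -0.11 and 0.27 without control replicate 2, with 2 and 6 above 0. HMGB2, an abundant chromatin protein that bends DNA, was at 210, 199 and 123 FPKM in control, 240, 223 and 116 in TPR A and 330, 183 and 157 in TPR D cultures. ANP32E, a chaperone of the histone H2A.Z, was at 195, 194 and 124 in control, 227, 181 and 116 in TPR A and 281, 153 and 148 in TPR D cultures. The groups overlapped for both genes. Changes were 0.089 and 0.29 for HMGB2 (SE 0.35) and 0.0064 and 0.15 for ANP32E (SE 0.36), and without control replicate 2 0.19 and 0.40 for HMGB2 and 0.11 and 0.25 for ANP32E.

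SMC4, a core subunit of condensin, was at 72.7, 85.5 and 54.4 FPKM in control, 66.6, 51.6 and 45.5 in TPR A and 78.0, 95.7 and 91.1 in TPR D cultures. Its values under TPR D lay above all those under TPR A. The changes were -0.37 and 0.34 (SE 0.31, limma adjusted p = 0.647 and 0.629), and -0.22 and 0.48 without control replicate 2. Tested directly, 0 of 41 genes differed between the shRNAs by limma, where 0.281% of all genes did, and 1 (SMC4) had an unadjusted p under 0.05 (7.41% of all).

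**Figure D3:**
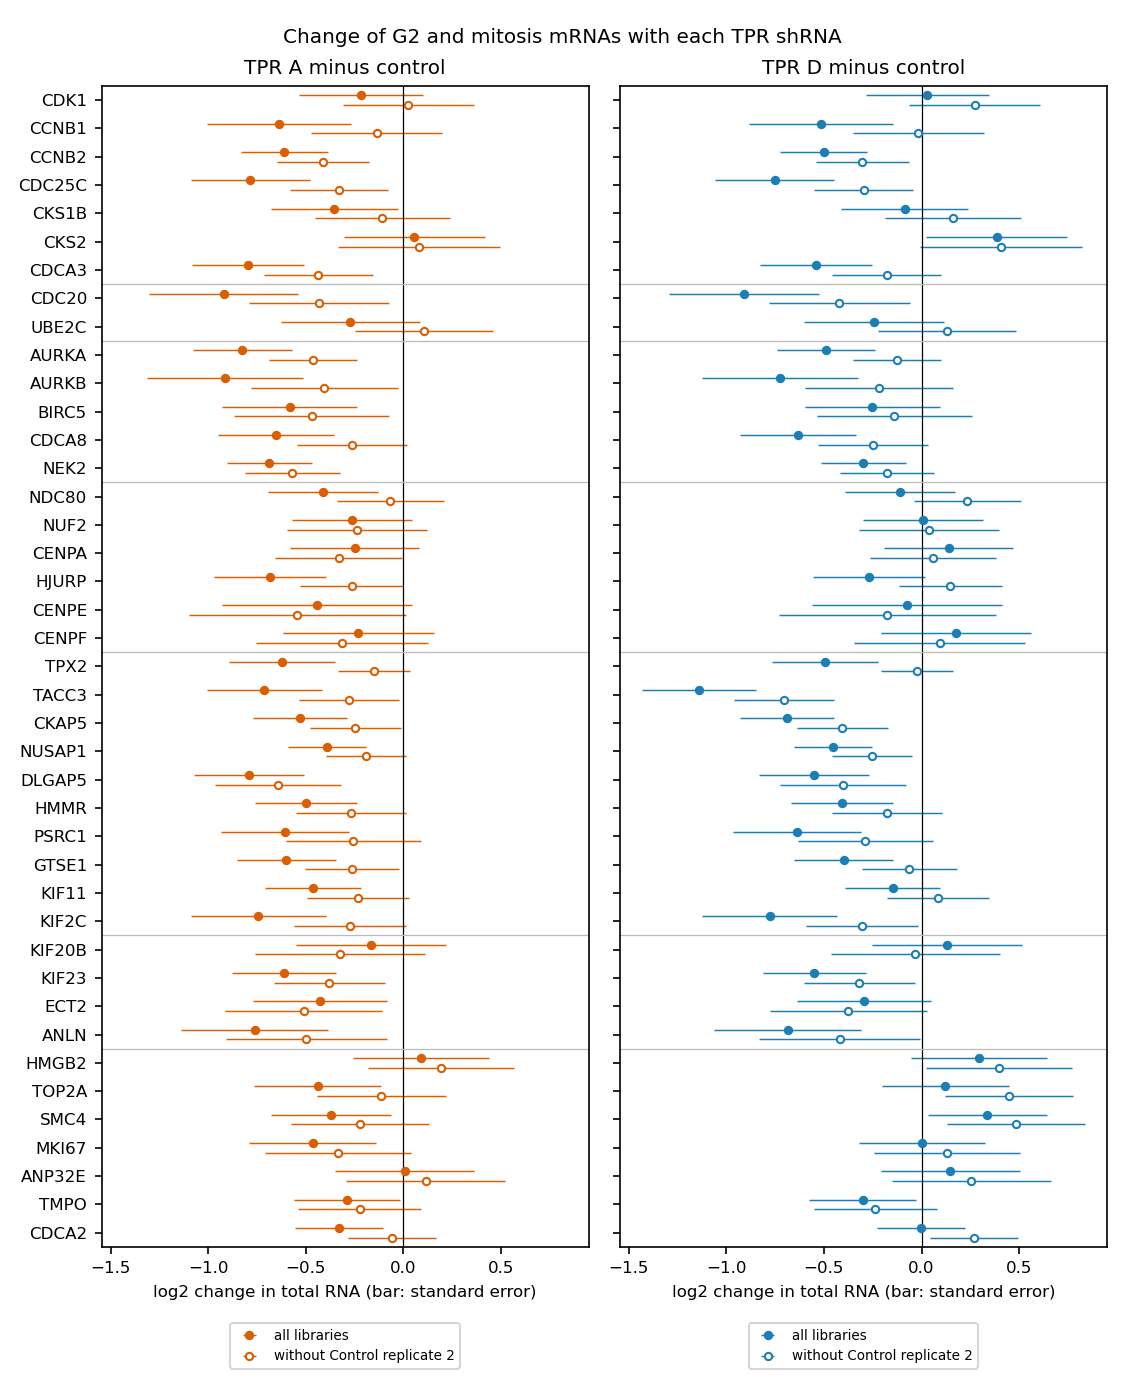
Log2 change of each of the 41 mRNAs in total RNA under TPR A (left) and TPR D (right), with bars of 1 standard error, from all libraries (filled) and without control replicate 2 (open). The filled points have medians of -0.50 and -0.30 and the open ones of -0.27 and -0.13, and TACC3 under TPR D is the lowest at -1.14.

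In total RNA all 3 TPR A values lay below all 3 controls for 5 genes (AURKA, CDC20, CDCA3, ECT2 and NEK2), against 8.33% of all genes tested. Under TPR D there were 3 (CDC20, DLGAP5 and TACC3), against 7.93% of all. No gene of the 41 had all depleted values above all controls, against 9.74% of all genes for TPR A and 8.2% for TPR D. Set against control replicates 1 and 3 alone, the same 5 were below under TPR A (15.2% of all genes), 4 under TPR D, with ECT2 added (13% of all), and SMC4 was above under TPR D (11.7% of all).

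Other genes of the pathway were counted from lists. In total RNA, of 54 other G2 and mitosis genes, 49 were below 0 under TPR A (median -0.50, 50.6% of all genes) and 40 under TPR D (median -0.33, 50.8% of all genes). There were 43 (median -0.27) and 31 (median -0.051) without control replicate 2. One of them passed the test, SAPCD2, at 17.7, 22.1 and 19.2 FPKM in control and 8.66, 9.29 and 8.997 under TPR A, a change of -1.12 (SE 0.18, limma adjusted p = 0.0035), and -1.03 without control replicate 2 (limma adjusted p = 0.0241). Of 20 regulators of these genes, RBBP4, a subunit of MuvB, passed under TPR D, at 216, 201 and 154 FPKM in control and 101, 98.5 and 91.7 under TPR D, a change of -0.96 (SE 0.18, limma adjusted p = 0.0117), and -0.91 without control replicate 2 (limma adjusted p = 0.0485). S-phase and replication genes (41 tested) had medians of -0.16 and -0.29, which were 0.012 and -0.0052 without control replicate 2. By limma 0 passed, where 0.821% and 0.753% of all genes did, and 3 and 5 had an unadjusted p under 0.05 in either direction. Of all 14611 genes, 993 were higher and 854 lower at that p under TPR A, and 974 and 1163 under TPR D.

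In nuclear RNA under TPR A the median change of the 41 was -0.36, with 38 below 0 (51.7% of all genes), and 17 genes had all TPR A values below all controls, against 9.01% of all genes. Under TPR D the median was -0.19 and 6 genes did so, against 8.34% of all. By limma 0 of 41 passed with either, where 0.903% and 0.479% of all genes did. At an unadjusted p under 0.05, 9 were lower under TPR A (5.94% of all) and 1 under TPR D (4.67% of all). Without control replicate 2 the medians were -0.42 and -0.19, and the genes below both remaining controls numbered 24 and 11, against 14.7% and 17% of all genes. In replicates 2 and 3 the medians were -0.30 and -0.092 and in replicate 1 -0.54 and -0.30.

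NEK2 had the lowest adjusted p in nuclear RNA. It was at 47.0, 45.4 and 40.4 FPKM in control, 31.5, 24.2 and 24.6 in TPR A and 40.8, 36.4 and 37.4 in TPR D cultures. TPR A values lay well below the controls, and TPR D values reached the lowest control. The change was -0.73 under TPR A (SE 0.22, limma adjusted p = 0.114) and -0.21 under TPR D. It was -0.71 under TPR A without control replicate 2, and the limma adjusted p with the replicate block was 0.0508.

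ANLN, the actin-binding scaffold of the cytokinetic ring, was at 396, 284 and 327 FPKM in control nuclei, 190, 184 and 188 under TPR A and 311, 247 and 187 under TPR D. The TPR A values were close together and below all controls. Its change was -0.83 under TPR A (SE 0.38, limma adjusted p = 0.373) and -0.94 without control replicate 2. MKI67, which coats mitotic chromosomes, was at 51.9, 49.9 and 35.8 FPKM in control nuclei and 24.8, 24.9 and 29.8 under TPR A, a change of -0.77 (SE 0.32, limma adjusted p = 0.308), and -0.71 without control replicate 2.

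In the cytoplasmic/ER fraction the medians were -0.34 under TPR A (40 of 41 below 0, against 52.7% of all genes) and -0.23 under TPR D. By limma 0 of 41 passed, where 0.623% and 0.575% of all genes did. At an unadjusted p under 0.05, 5 were lower under TPR A (5.87% of all) and 2 under TPR D (5.04% of all). All values lay below all controls for 7 genes under TPR A, against 8.62% of all genes, and for 3 under TPR D, against 7.72%. The medians were -0.38 and -0.21 in replicates 2 and 3 and -0.28 and -0.054 in replicate 1. TACC3 was among the 3 below all controls under TPR D, at 75.0, 83.3 and 49.2 FPKM in control and 34.5, 43.2 and 28.4 under TPR D. Its change was -0.95 (SE 0.29, limma adjusted p = 0.178, and 0.0218 with the replicate block).

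The next comparison asked where the mRNAs lay. The N/C ratio is the log2 of nuclear over cytoplasmic/ER FPKM in the same culture. Each library is scaled on its own, so 0 marks a gene split like the typical mRNA and not equal amounts. In control cells the 41 mRNAs were more nuclear than the typical gene, with a median of 0.85 against -0.014 over all genes. By limma 22 were called nuclear, where 20.2% of all genes were, and 3 cytoplasmic, where 19.2% were. The cultures had medians of 0.96, 0.81 and 1.02, and without control replicate 2 there were 23 nuclear (15.6% of all) and 1 cytoplasmic (CKS1B, 14.2% of all), with a median of 0.90. In replicates 2 and 3 the median was 0.92, with 18 nuclear and 1 cytoplasmic, against 1649 and 1576 of all 14611 genes. Nuclear and cytoplasmic/ER libraries of a culture deviated together from their group means in all 9 cultures (correlation 0.223 to 0.469). With culture as a block in the fit, 24 were nuclear (23.6% of all genes) and 4 cytoplasmic (23.4% of all), with CDK1, ANP32E and UBE2C added.

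By role, the CDK1 switch had a median of -0.15 (0 of 7 called nuclear, 2 cytoplasmic) and the pair CDC20 and UBE2C of -0.62. All 4 central spindle and cytokinesis genes were called nuclear, with a median of 2.19, as were 5 of 6 centromere and kinetochore genes (1.37), 7 of 10 spindle genes (1.16) and 5 of 7 chromosome genes (1.13). When control replicate 2 was left out, CDC25C was called nuclear (0.80, limma adjusted p = 0.0355) and only CKS1B of the CDK1 switch cytoplasmic. The medians were then -0.033 for the CDK1 switch, -0.37 for CDC20 and UBE2C, 2.06 for cytokinesis, 1.47 for kinetochore, 1.38 for spindle and 1.14 for chromosome genes, and the calls in the last 4 groups kept their numbers.

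The most nuclear mRNA was ANLN. Its cytoplasmic/ER level in control was 7.91, 7.63 and 17.5 FPKM, against the nuclear 396, 284 and 327, and its N/C ratio was 5.63, 5.20 and 4.22. The mean of 5.02 (SE 0.38, limma adjusted p = 1.7e-08) was the highest of the 12333 coding genes tested and rank 4 of all 14611 genes. It was rank 2 of the coding genes and rank 7 of all without control replicate 2. CENPF, a kinetochore and nuclear matrix protein, was at 42.4, 56.4 and 36.0 FPKM in nuclei and 2.83, 2.03 and 3.39 in the cytoplasmic/ER fraction, a mean ratio of 3.98 (SE 0.39, limma adjusted p = 5.2e-07).

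MKI67 had ratios of 3.62, 3.76 and 2.71 (mean 3.36, SE 0.32, limma adjusted p = 5.2e-07). CENPE, the motor that carries chromosomes to the spindle equator, had 2.95, 3.95 and 2.41 (mean 3.10, SE 0.48, limma adjusted p = 5.8e-05). All 4 also passed without control replicate 2, at 4.93 for ANLN, 3.61 for CENPF, 3.16 for MKI67 and 2.68 for CENPE (limma adjusted p at most 0.00302).

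At the other end stood CKS1B, like CKS2 a small subunit that binds CDKs. It was at 177, 167 and 115 FPKM in control nuclei and 372, 507 and 276 in the cytoplasmic/ER fraction, with ratios of -1.07, -1.60 and -1.26 (mean -1.31, SE 0.33, limma adjusted p = 0.0031). BIRC5, or survivin, had -1.16, -0.96 and -0.80 (mean -0.97, SE 0.35, limma adjusted p = 0.0287). CKS2 had -0.81, -0.80 and -1.11 (mean -0.91, SE 0.36, limma adjusted p = 0.0497), and UBE2C, at -0.75, -1.19 and -0.46, did not pass (limma adjusted p = 0.0797) unless culture was a block (limma adjusted p = 0.0109). Without control replicate 2, BIRC5 and CKS2 no longer passed (limma adjusted p = 0.0941 and 0.115).

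**Figure D4:**
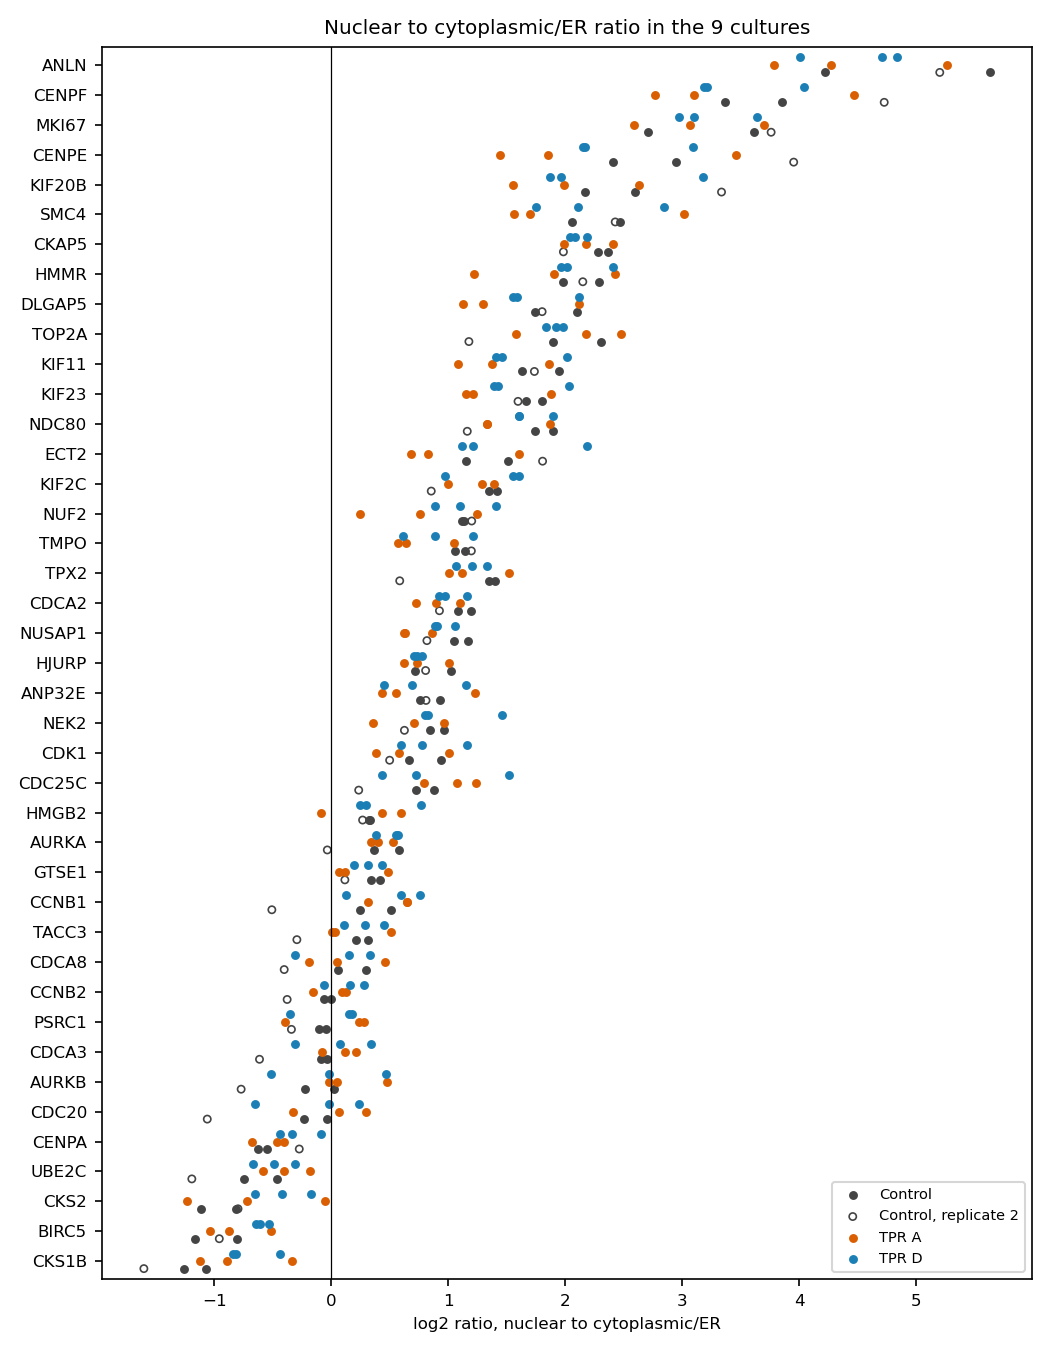
Log2 nuclear to cytoplasmic/ER ratio of each of the 41 mRNAs in the 9 cultures, sorted by the control mean, with control replicate 2 as open circles. The order runs from CKS1B at -1.31 to ANLN at 5.02, and the TPR A and TPR D points follow the controls along it.

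Longer mRNAs had higher ratios. Over the 41 genes the N/C ratio in control and mRNA length had a Spearman rho of 0.86, against 0.50 over 12333 coding genes. With the length of the unspliced pre-mRNA it was 0.81 (coding genes 0.41), and with exon number 0.84 (coding genes 0.38), from all libraries. The 3 features were not separated. These points share libraries. FPKM divides by length on both sides of the ratio. The 8 mRNAs under 1500 nt, with CKS1B (779 nt), CKS2 (616 nt), UBE2C (777 nt) and HMGB2 among them, had a median ratio of -0.40, against -0.78 for coding genes of that length. The 16 of 1500 to 3000 nt had 0.46 (all -0.21) and the 9 of 3000 to 5000 nt 1.13 (all 0.17). The 8 of 5000 nt or more, such as CENPF, MKI67 (12716 nt), CENPE (8541 nt) and KIF20B, had 2.51, against 0.57. In each class the median of the 41 genes was above that of coding genes of like length. The rho with mRNA length was 0.86, against 0.42, without control replicate 2. The medians by class were then -0.34 (all -0.65), 0.64 (all -0.12), 1.33 (all 0.17) and 2.35 (all 0.46). ANLN (4731 nt) was the highest and BIRC5 (2574 nt) the lowest in its class of the 41.

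**Figure D5:**
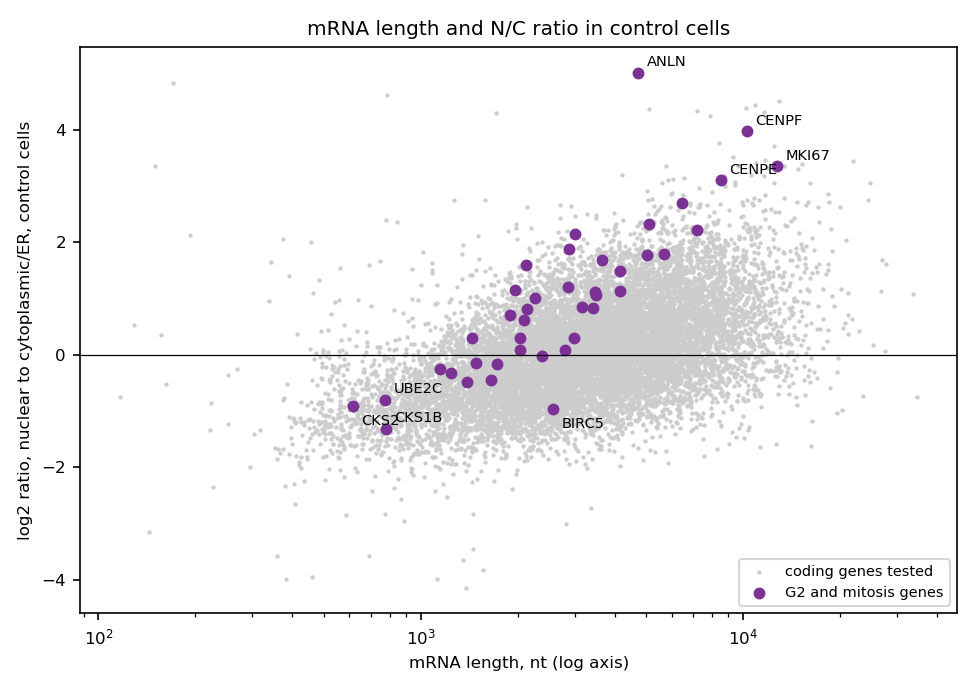
N/C ratio in control cells (mean of 3 cultures) against mRNA length in nt (log axis), for the 41 genes in purple and the coding genes tested in grey. The 41 rise from CKS1B, CKS2 and UBE2C under 1500 nt to CENPE, CENPF and MKI67 above 5000 nt, and ANLN stands at the top with 5.02.

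In depleted cells, under TPR A 22 of the 41 were called nuclear (15.2% of all genes) and 0 cytoplasmic (13.2% of all), with a median of 0.75. Under TPR D 23 were called nuclear (17.1% of all) and 0 cytoplasmic (14.6% of all), with a median of 0.90. At an unadjusted p under 0.05 by limma, 2 and 1 were cytoplasmic (19.1% and 19.8% of all). With culture as a block, 25 were nuclear and 2 cytoplasmic (BIRC5 and CKS1B) with each shRNA, against 18.8% and 17.4% of all genes for TPR A and 20.5% and 18.2% for TPR D. With replicate number as a block there were 25 and 2 for TPR A (18.4% and 16.8% of all genes) and 26 and 2 for TPR D (20.3% and 18% of all). The N/C ratio and mRNA length had a rho of 0.85 and 0.83.

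The last comparison asked whether TPR-depletion shifted the mRNAs between nucleus and cytoplasm. The change of the N/C ratio had a median of -0.041 under TPR A, 0.090 under TPR D and 0.043 for both together, where a positive value means more nuclear. By limma 0 of the 41 passed in any of the 3, as did 0% of all genes. At an unadjusted p under 0.05 there were 0 of the 41, against 1.47%, 0.821% and 1.72% of all genes. The SE of single genes was 0.24 to 0.59 for both shRNAs together, and a change must be well above its SE to pass. The lowest change, -0.74 for CENPE, did not pass, so the absence of calls does not show that single mRNAs kept their place. Without control replicate 2 the medians were -0.13, -0.0088 and -0.094, in replicates 2 and 3 they were 0.036, 0.12 and 0.085, and in replicate 1 -0.34, -0.16 and -0.21.

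The highest changes were those of shorter mRNAs. CKS1B went from the control ratios of -1.07, -1.60 and -1.26 to -0.33, -0.89 and -1.12 under TPR A and -0.44, -0.84 and -0.82 under TPR D, with 1 TPR A value inside the control range. The change for both was 0.57 (SE 0.40, limma adjusted p = 0.999), and 0.43 without control replicate 2. CCNB1 had 0.43 (SE 0.45) and AURKB 0.40 (SE 0.49), which without control replicate 2 were 0.14 and 0.17.

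The lowest were those of longer mRNAs. CENPE was at 2.95, 3.95 and 2.41 in control, 1.86, 3.46 and 1.44 under TPR A and 2.17, 3.09 and 2.15 under TPR D, and the groups overlapped. Its change was -0.74 (SE 0.59), ANLN's -0.54 (SE 0.46) and CENPF's -0.52 (SE 0.47), which without control replicate 2 were -0.32, -0.45 and -0.15.

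Over the 41 genes the change for both shRNAs and mRNA length had a Spearman rho of -0.75, against -0.54 over coding genes. With pre-mRNA length it was -0.74 (coding genes -0.52), and with exon number -0.61 (coding genes -0.36), from all libraries. Which of these features the change follows was not tested. The control libraries enter both the ratio and its change, and the points share libraries. All 8 mRNAs under 1500 nt were above 0 (median 0.33, all coding genes of that length 0.34) and 1 of 8 of 5000 nt or more was (median -0.21, all -0.20). Leaving out control replicate 2, the rho with mRNA length was -0.69, against -0.41. The 8 shorter mRNAs were again above 0 with a median of 0.17 (all 0.22), and the 8 longest had a median of -0.16 (all -0.11), with 1 above 0.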

How the data were processed

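RNA Frac-Seq gave 27 libraries. The authors quantified poly(A)+ reads with Salmon against Gencode release 19 coding and lncRNA transcripts (hg19 in the submitters' notes), summed transcripts with tximport and deposited FPKM. Counts were not used here, so count models were not run. Libraries were rescaled by median-of-ratios factors (0.954 to 1.06), genes with a mean of 1 or less and 13 mitochondrial genes were left out, and log2(FPKM + 0.1) was fitted with limma 3.58.1 in R 4.3.3 over 9 groups (trend, 18 residual degrees of freedom, Benjamini-Hochberg over 14611 genes, threshold 0.05). Fold changes are on this scale. The script was tested on simulated data. Other steps used Python 3.11.15, numpy 2.4.6, pandas 2.3.3, scipy 1.17.1 and matplotlib 3.10.9.

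Lengths are of the canonical transcript in GENCODE release 44 on GRCh37, which matched 32776 IDs and all 41 genes. Depth was read from values of 1 to 5 reads (37995 values, 90.5% within 0.1 of a whole read, 240 nt subtracted from lengths). The members and lists were chosen with earlier results of these data known. In full were given TPR, the 4 highest and 4 lowest changes in total RNA, the 4 highest and 4 lowest control N/C ratios and the 3 largest N/C changes each way, and others where a count or test singled them out (AURKA, NEK2, and ANLN, MKI67 and TACC3 within a fraction), chosen after their values were seen. The ends were ranked with all libraries in the fit. N/C ratios in TPR A and TPR D cells were fitted likewise.

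Deviations of same-numbered libraries from their group means correlated above 0.1 in every pair for control and TPR A in total RNA (0.137 to 0.324) and between both TPR shRNAs in nuclear (0.131 to 0.266) and cytoplasmic/ER RNA (0.398 to 0.597). For control and TPR D they did not. Nuclear and cytoplasmic/ER libraries of a culture did in all 9 (0.223 to 0.469), so N/C ratios were also fitted with culture as a block. Blocked values are given beside the calls they change. Replicate 1 is labelled in another style, and values within each style are given. Other alternatives were FPKM as deposited, pseudocounts of 1 and 0.01, no minimum, a minimum of 5, no trend, and each culture left out.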

Additional observations from a re-analysis of the deposited data

Results flagged for a closer look

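SMC4, the condensin subunit, was singled out because the 2 shRNAs lay on opposite sides of the control mean in total RNA. All 3 TPR A cultures (66.6, 51.6 and 45.5 FPKM) were below the control mean of 70.8 FPKM and all 3 TPR D cultures (78.0, 95.7 and 91.1 FPKM) above it. TPR A minus TPR D was -0.71 on the log2 scale (SE 0.31, limma adjusted p = 0.567), so the difference did not pass the test. Without control replicate 2 the mean changes stayed on opposite sides, at -0.22 under TPR A and 0.48 under TPR D. That all 3 TPR A cultures were below the control mean rests on control replicate 2. From control replicates 1 and 3 the mean was 63.5 FPKM, and TPR A replicate 1 lay above it.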

How the results depend on the processing

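When replicate number was a block, the genes called among the 41 went from 0 to 1 in total RNA with TPR A, 1 in total RNA with TPR D and 1 in cytoplasmic/ER RNA with TPR D. Over all 14611 genes the blocked fit called 229 higher and 149 lower, 221 and 240, and 117 and 144 in these comparisons. Leaving out single cultures, the counts among the 41 ranged over 0 to 3, 0 to 1 and 0 to 1, with the calls made without control replicate 3 (TACC3, AURKA and HJURP with TPR A, TACC3 with TPR D). That fit kept control replicate 2, whose total library went against its label. Cytoplasmic calls in control, 3 in all libraries, were 1 with no minimum of FPKM, 1 in replicates 2 and 3, and 1 to 3 with a culture left out (1 without control replicate 1 or 2). In replicate 1 alone median N/C changes were -0.34 (TPR A), -0.16 (TPR D) and -0.21 (both), and the last ranged from -0.094 (without control replicate 2) to 0.080 with a culture left out. The sign turned for small changes in total RNA. With FPKM as deposited CKS2 with TPR A was at -0.0072 and ANP32E at -0.055, and in replicates 2 and 3 ANP32E was at -0.10 with TPR A and -0.045 with TPR D. With a culture left out CKS2 ranged from -0.12 to 0.38 with TPR A, HMGB2 from -0.15 to 0.42 with TPR A and -0.028 to 0.51 with TPR D, and ANP32E from -0.21 to 0.27 and -0.15 to 0.31. The causes were not tested. In the other settings 401 summary values and 504 gene values kept their side, while 6 gene values passed the threshold newly and 14 no longer did. With 3 replicates a group, a median SE of 0.31 in total RNA limits what single genes can show.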
